A study of Mus musculus with 24 samples.

Results

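The inflammasome and interleukin-1 genes described here are 10 genes taken by name from the 54532 genes counted in each library: Nlrp3, Pycard, Casp1, Gsdmd, Il1a, Il1b, Il18, Il1rn, Il1r1 and Il1r2. All 10 were found in the count tables. None was chosen by a threshold on its values, though earlier results of these data were known. RNA was sequenced from the left gastrocnemius, a calf muscle, of WT C57/BL6 mice in 24 libraries, 4 from each combination of 2 sexes and 3 conditions. Control mice had 2 injections of 20 µl of saline at pH 7.2 into the muscle, 5 days apart. Mice of the sedentary pain group had 2 injections of the same volume at pH 5.0, and 6 minutes of electrically evoked contraction of the muscle came just before the second one. Mice of the active pain group had the same acid and contraction after 8 weeks with a running wheel. All samples carry a time label of 24 h. The labels name no contraction and no wheel for the controls, so acid and contraction cannot be told apart in any comparison with them. In active pain against control, running cannot be told apart from these either. No group ran without acid and contraction. An effect of running by itself and one on the response therefore cannot be told apart. Both pain groups of a sex were compared with the same 4 controls. The labels number the libraries as replicates but do not say that each came from a separate mouse, so p-values measure the spread between these libraries.

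An inflammasome is a protein complex in which a sensor such as NLRP3 and the adaptor ASC, the product of Pycard, bring caspase-1 together and activate it. Caspase-1 cuts the precursors of interleukin-1β and interleukin-18 into their active forms and cuts gasdermin D, which then opens pores in the cell membrane through which the cytokines leave. Interleukin-1α and interleukin-1β signal through the receptor IL1R1, while the antagonist encoded by Il1rn blocks that receptor and IL1R2 is a decoy that binds the ligand without signalling. In muscle, interleukin-1β is known as a cytokine of invading leukocytes that sensitises pain nerve endings. RNA levels do not measure cleavage or secretion, the steps at which these proteins are activated.

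Total counts ranged from 17612139 to 34039699 per library. The labelled tissue was checked by 7 muscle fibre markers, whose summed level was between 73060 and 177647 counts per 1000000 (CPM, scaled by the library's normalisation factor) in the 24 libraries, with none at 0 in any group. The first principal component, which held 57.1% of the variance, set 3 libraries apart from the others of their group: female active pain replicate 3 (score 50.8), male sedentary pain replicate 1 (93.3) and male active pain replicate 2 (50.5). Female sedentary pain libraries were spread widely on it, from 28.9 to 151.2. Because this is whole muscle, more cells of a type and more RNA per cell cannot be told apart for any gene below. Of the 10 genes, 9 passed the filter on low counts in females and 8 in males. In these fits of 12 libraries Il1a was tested in neither sex and Nlrp3 only in females.

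The regulatory sequence just before the start of transcription is shown for 5 genes of different roles (sensor, adaptor, ligands, antagonist), to place the results on the DNA. These were at most 1.30 CPM in every control and had their highest levels in pain libraries. Il18 and Il1r2 also met those levels and are not shown. RefSeq start sites on GRCm38.p6 gave 13 windows of 250 bases for 9 of the 10 genes. No window was matched for Gsdmd. The windows below run 5′ to 3′ on the gene's own strand and end at the base before the start; capitals mark matches to 5 motifs searched on both strands. Nlrp3, at its first start, lies at chr11:59541319-59541568 on the plus strand. Il1b lies at chr2:129371140-129371389 and Il1a at chr2:129309973-129310222, both on the minus strand. Il1rn, at its first start, lies at chr2:24336610-24336859 on the plus strand, and Pycard at chr7:127993868-127994117 on the minus strand.
Nlrp3: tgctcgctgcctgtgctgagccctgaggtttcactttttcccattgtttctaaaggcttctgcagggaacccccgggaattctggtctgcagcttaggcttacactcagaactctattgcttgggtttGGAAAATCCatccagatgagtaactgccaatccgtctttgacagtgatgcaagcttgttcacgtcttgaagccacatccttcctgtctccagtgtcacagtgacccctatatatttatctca
Il1b: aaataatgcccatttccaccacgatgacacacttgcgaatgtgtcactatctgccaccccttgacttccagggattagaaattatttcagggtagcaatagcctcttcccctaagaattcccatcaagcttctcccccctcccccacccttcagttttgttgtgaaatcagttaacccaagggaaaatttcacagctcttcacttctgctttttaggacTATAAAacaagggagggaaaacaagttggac
Il1a: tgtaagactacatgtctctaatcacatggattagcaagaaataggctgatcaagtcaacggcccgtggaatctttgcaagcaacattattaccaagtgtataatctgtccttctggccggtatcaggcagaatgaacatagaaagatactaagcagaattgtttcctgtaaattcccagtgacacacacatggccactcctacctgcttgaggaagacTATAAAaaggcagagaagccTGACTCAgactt
Il1rn: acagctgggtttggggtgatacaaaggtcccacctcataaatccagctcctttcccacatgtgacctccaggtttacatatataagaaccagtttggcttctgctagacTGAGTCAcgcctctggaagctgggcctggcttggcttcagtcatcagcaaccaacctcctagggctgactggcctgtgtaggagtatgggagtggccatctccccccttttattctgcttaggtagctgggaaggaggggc
Pycard: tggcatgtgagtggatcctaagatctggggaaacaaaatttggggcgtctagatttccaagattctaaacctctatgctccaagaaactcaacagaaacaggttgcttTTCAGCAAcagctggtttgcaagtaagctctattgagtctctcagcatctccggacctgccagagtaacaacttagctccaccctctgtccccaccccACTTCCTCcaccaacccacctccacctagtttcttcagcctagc

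The ligand genes Il1b and Il1a each held the TATA-like letters TATAAA, beginning 31 and 32 bases before the start. Il1a also held the AP-1-like letters TGANTCA, beginning 12 bases before its start, and Il1rn held them 141 bases before its first start. Pycard held a C/EBP-like match (TTGCNNAA, 142 bases before the start) and a PU.1-like match (GAGGAAGT, 44 bases before), both on the reverse strand. A κB-like match (GGNNTTTCC) was found in both windows of Nlrp3, 122 bases before the first start, and in the window of the third start of Il1rn, 50 bases before it. Among 32851 windows of all genes, 12.4% held the TATA-like letters, 6.75% the AP-1-like, 9.56% the C/EBP-like, 2.44% the PU.1-like and 4.93% the κB-like ones. Among genes not shown, Il18 held the TATA-like letters 175 bases before its start. Il1r1 held a C/EBP-like match 133 bases before its first start. Neither Casp1 nor Il1r2 had a match to any of the 5 in its windows. No 2 of the marked matches overlap in the windows shown. These are matches of letters in a short window, and binding was not measured.

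The first question was how these genes differed in painful muscle of sedentary females from control muscle. Of the 9 genes tested, 8 were higher in female sedentary pain and Il1r1 was the exception, at an adjusted p under 0.05 in edgeR's quasi-likelihood test with Benjamini-Hochberg adjustment over all 14511 genes. Of all genes tested, 19.6% were higher and 33.5% were called in either direction. The median log2 fold change was 3.99 over the 9 genes and -0.02 over all genes. In 5 of the genes (Nlrp3, Pycard, Gsdmd, Il1b and Il1rn) every sedentary pain library lay above every control, which 13.9% of all genes also showed. With 1 surrogate variable in the fit, 0 of the 9 genes and 0.786% of all genes were called, and log2 fold changes were smaller (4.26 for Il1b, 2.64 for Nlrp3 and 0.60 for Casp1).

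**Figure D1:**
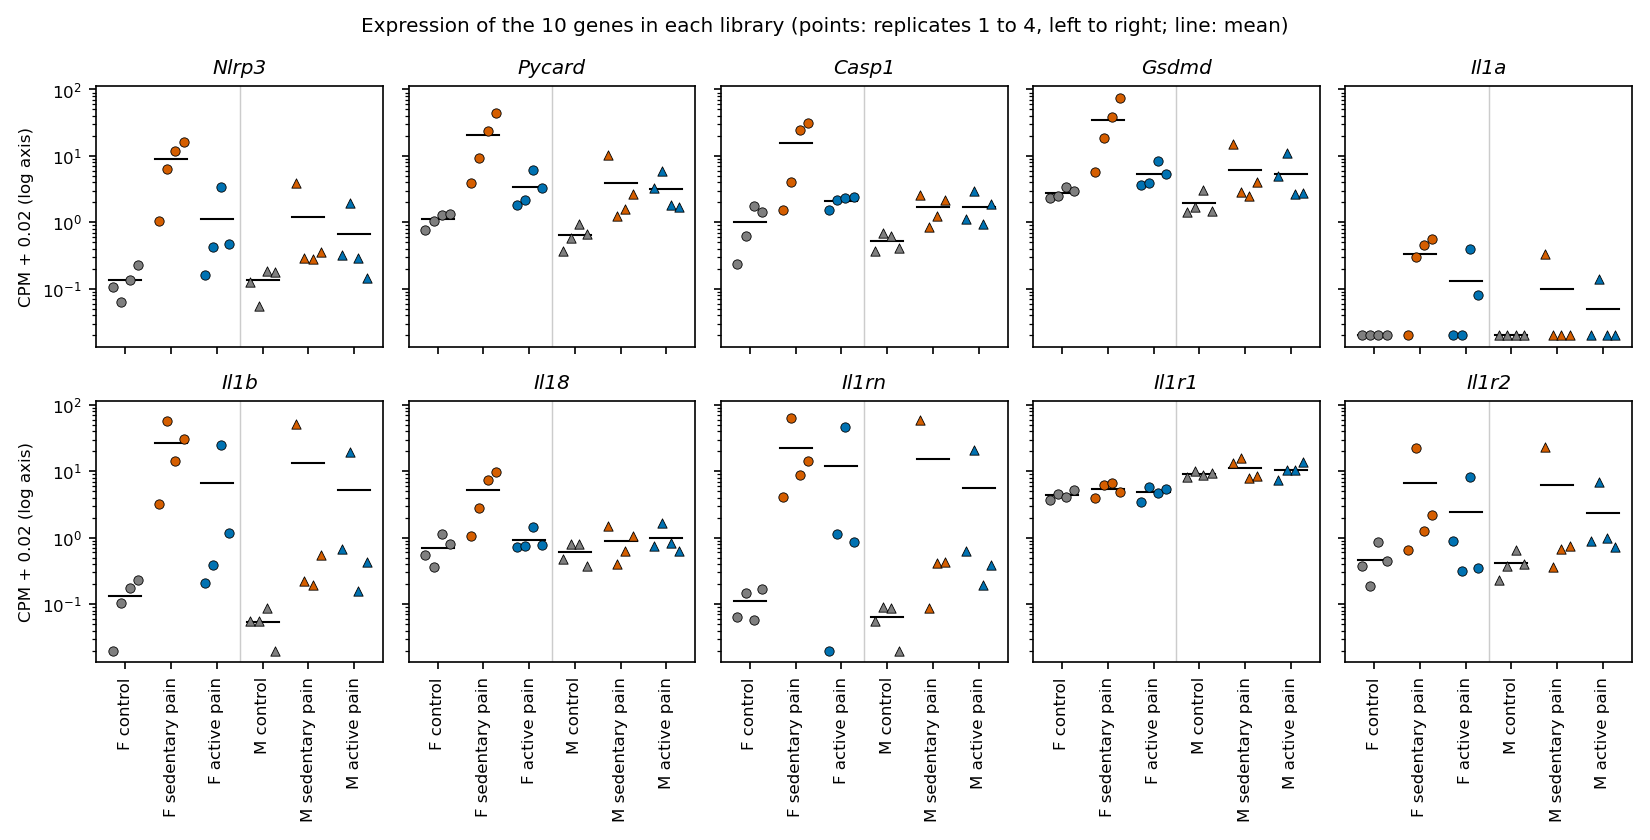
Expression of the 10 genes in each of the 24 libraries, as CPM plus 0.02 on a log axis, by group (F female, M male); points are replicates 1 to 4 from left to right and lines are group means. The 4 female sedentary pain libraries sit above all female controls for Nlrp3, Pycard, Gsdmd, Il1b and Il1rn, while Il1r1 stays between 3.40 and 15.7 CPM in all libraries.

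The sensor gene Nlrp3 (chr11:59541568-59566956, plus strand) was barely expressed in control muscle. Its level in female controls was 0.0875, 0.0426, 0.115 and 0.212 CPM in replicates 1 to 4, or 1 to 7 counts. Sedentary pain libraries of females had 1.02, 6.42, 12 and 16.2 CPM. The lowest of these was above the highest control, and replicate 1 was well below the other 3. This was a log2 fold change of 6.20 ± 1.16 (SE, n = 4 and 4; adjusted p = 0.00413 in edgeR's quasi-likelihood test).

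Pycard (chr7:127989708-127993867, minus strand), which encodes the adaptor that links sensor to protease, stood at 0.744, 1.02, 1.27 and 1.30 CPM in female controls. It reached 3.84, 9.29, 23.5 and 44.7 CPM in sedentary pain. Replicates 3 and 4 were the highest and the groups did not overlap. Pycard thus rose by 4.26 ± 0.71 on the log2 scale (SE, n = 4 and 4; adjusted p = 0.00303, edgeR).

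Casp1 (chr9:5298517-5307265, plus strand) encodes the protease that matures both cytokines. Female controls gave 0.219, 0.596, 1.73 and 1.39 CPM and sedentary pain libraries 1.51, 4.05, 24.5 and 31.8 CPM. Replicates 3 and 4 again were far above the others, and replicate 1 lay below the highest control, so the groups overlapped. The rise of Casp1 was 3.99 ± 0.89 on the log2 scale (SE, n = 4 and 4; adjusted p = 0.00799, edgeR).

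Gsdmd (chr15:75862327-75867408, plus strand), the gene of the pore-forming protein, was the most abundant of these 4 in controls when length is taken into account. Its level was 2.28, 2.47, 3.42 and 2.94 CPM in female controls and 5.76, 18.5, 39.0 and 74.8 CPM in sedentary pain. Each pain library was above each control, and replicate 4 was the highest. Its rise was 3.68 ± 0.64 on the log2 scale (SE, n = 4 and 4; adjusted p = 0.00327, edgeR).

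The ligand gene Il1b (chr2:129364570-129371139, minus strand) had almost no reads in control muscle. In female controls it had 0, 0.0852, 0.154 and 0.212 CPM (0 to 7 counts). In sedentary pain it had 3.24, 57.9, 14.2 and 31.1 CPM, with the highest value in replicate 2 and not in replicates 3 or 4. The groups did not overlap, and the log2 fold change was 7.76 ± 1.77 (SE, n = 4 and 4; adjusted p = 0.00893, edgeR).

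Il18 (chr9:50554827-50581840, plus strand), the other caspase-1 substrate, was detected in every control and had a smaller fold change. Values were 0.525, 0.341, 1.12 and 0.787 CPM in female controls and 1.05, 2.76, 7.48 and 9.66 CPM in sedentary pain. Replicate 1 fell just below the highest control and the other 3 lay above all controls. Il18 rose by 2.95 ± 0.63 on the log2 scale (SE, n = 4 and 4; adjusted p = 0.00679, edgeR). The strand setting of the counting is not given in the sources used here, and Il18 overlaps Bco2 on the opposite strand (at most 125 counts in a library), so reads of the pair may be mixed.

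Il1a (chr2:129299610-129309972, minus strand), the ligand that is active without caspase-1, had 0 counts in all 8 control libraries. Sedentary pain libraries of females had 0, 5, 14 and 16 counts, so 3 of 4 had reads. Their mean of 0.312 CPM was at least 2.69-fold higher than the level of 3 counts per control library, the limit that a count of 0 allows. Il1a did not pass the filter in the fit of 12 female libraries and was not tested there. It overlaps the transcript Gm14023 on the opposite strand, which had at most 31 counts.

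Il1rn (chr2:24336853-24351494, plus strand), the gene of the receptor antagonist, rose by about as much as the ligand Il1b. Female controls had 0.0438, 0.128, 0.0385 and 0.151 CPM (1 to 5 counts) and sedentary pain libraries 4.10, 63.4, 8.67 and 14.5 CPM. All pain libraries were above all controls, and replicate 2 held 69.9% of the group's summed level. The log2 fold change was 7.87 ± 2.03 (SE, n = 4 and 4; adjusted p = 0.0154, edgeR). For Nlrp3, Il1b and Il1rn the mean control level was below that of 3 counts per library, so the size of the fold rests on few control reads.

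The receptors split. The decoy gene Il1r2 (chr1:40074079-40125231, plus strand) had 0.35, 0.17, 0.846 and 0.424 CPM in female controls and 0.64, 22.5, 1.23 and 2.19 CPM in sedentary pain. Replicate 2 alone held 84.7% of the group's summed level, and replicate 1 lay within the controls. The log2 fold change was 3.87 ± 1.37 (SE, n = 4 and 4; adjusted p = 0.0479, edgeR), just inside the threshold, and it was 1.63 with an adjusted p of 0.271 without replicate 2. Il1r2 lost its call in 8 of the 12 fits that left out 1 library, among them each of the 4 fits without a control.

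Il1r1 (chr1:40225080-40317257, plus strand), the signalling receptor, did not pass the test. It had 3.63, 4.52, 4.08 and 5.27 CPM in female controls and 3.99, 6.25, 6.62 and 4.88 CPM in sedentary pain, ranges that overlapped. The log2 fold change was 0.35 ± 0.22 (SE, n = 4 and 4; adjusted p = 0.218, edgeR).

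Markers of several leukocyte types moved with these genes. All 10 macrophage and monocyte markers were higher in female sedentary pain than in controls (summed level 422 to 4709 CPM against 87.0 to 188 CPM, none at 0), as were 5 of the 7 neutrophil markers tested of 8 (21.3 to 249 against 0.885 to 4.75 CPM, none at 0 in all 4 libraries). Both T and NK cell markers tested of 6 were higher too (2.86 to 69.5 against 0.0852 to 1.88 CPM), as were the 1 B cell marker tested of 3 and 1 of 3 dendritic cell markers tested. None of 4 mast cell markers was called (10.5 to 40.4 against 12.6 to 30 CPM). All 3 adipocyte markers were lower, with controls between 146 and 3252 CPM and pain libraries between 57.6 and 401 CPM. Of 3 endothelial markers 2 were lower (104 to 125 against 136 to 152 CPM), and of 7 muscle fibre markers 1 was, with the summed level of replicates 3 and 4 (82093 and 73060 CPM) below all female controls (113097 to 177647 CPM). Mitochondrial genes held 5.17% ± 2.41 of counts in female sedentary pain and 9.26% ± 1.17 in controls (SD, n = 4), and with those genes left out 8 of the 9 genes were called, beside 33.5% of all genes. The part of these cell types in the result was not tested.

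Single libraries weighed on the size of the female difference more than on its call. Without female sedentary pain replicate 4 the log2 fold change was 3.55 for Pycard, 3.40 for Casp1 and 2.99 for Gsdmd, and without replicate 2 it was 7.08 for Il1b and 6.59 for Il1rn. All 5 of these values kept an adjusted p under 0.05. The deposited libraries also carry running numbers, and each group has 2 libraries numbered 20 or lower and 2 numbered 25 or higher. Within the higher-numbered libraries 7 of 10 genes were called, beside 22.4% of all genes (edgeR, 2 libraries a group). Il1a was among the 7, and Il1rn and Il1r2 were not. Il1a had 0 counts in those controls and passed the filter there only through pain libraries, so its call adds no support. Within the lower-numbered libraries 0 of 9 genes were called, beside 1.67% of all genes (edgeR, 2 libraries a group). The log2 fold changes of Nlrp3 were 6.4 and 5.76 in these sets, those of Pycard 4.77 and 2.92 and those of Il1b 6.95 and 9.35.

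**Figure D2:**
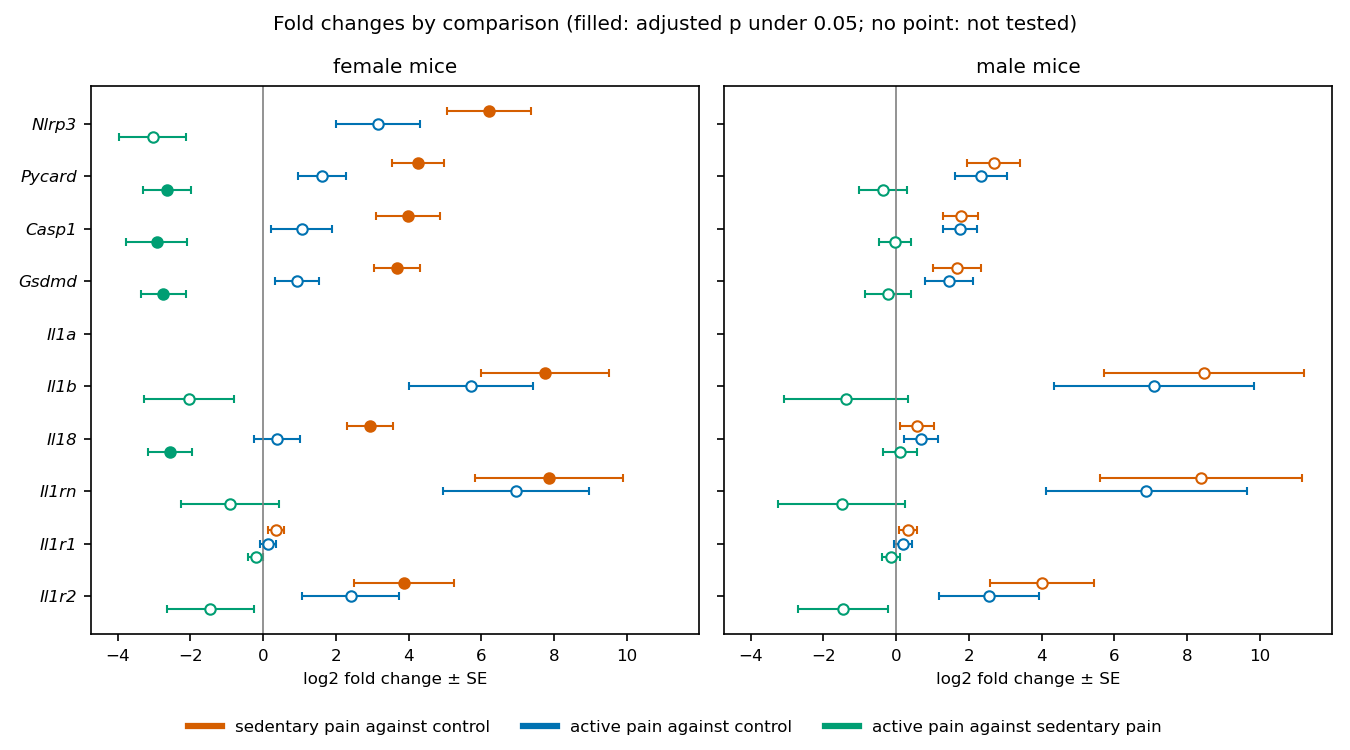
Log2 fold change with its standard error for each gene in 3 comparisons in females (left) and males (right); filled points have an adjusted p under 0.05 and genes without a point were not tested. Filled points are seen in females only: 8 for sedentary pain against control and 4 for active against sedentary pain.

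The second question was whether muscle of physically active females differed. Compared with sedentary pain, 4 of the 9 genes tested were lower in active pain (adjusted p under 0.05 in edgeR's quasi-likelihood test; 9.41% of all genes were lower). These were the adaptor Pycard, the protease Casp1, the pore gene Gsdmd and the cytokine Il18. In no gene were the groups without overlap, a separation that 5.73% of all genes showed in this direction.

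In active pain, Pycard had 1.82, 2.12, 6.18 and 3.27 CPM, all below the 4 sedentary pain values except replicate 3. Its log2 fold change against sedentary pain was -2.64 ± 0.65 (SE, n = 4 and 4; adjusted p = 0.033, edgeR). Casp1 was even across the group, with 1.49, 2.16, 2.33 and 2.42 CPM, and changed by -2.93 ± 0.83 (adjusted p = 0.0439, edgeR). Both had their highest sedentary pain values in replicates 3 and 4.

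Gsdmd had 3.59, 3.95, 8.31 and 5.35 CPM in active pain, a log2 fold change of -2.74 ± 0.61 (SE, n = 4 and 4; adjusted p = 0.0328, edgeR). Il18 had 0.699, 0.732, 1.45 and 0.764 CPM, 3 of them within the control range, and changed by -2.56 ± 0.62 (adjusted p = 0.0328, edgeR). Replicate 3 was the highest active library for both and lay inside the sedentary pain range.

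The sensor gene Nlrp3 had 0.14, 0.403, 3.43 and 0.459 CPM in active pain and stopped just short of the threshold, with a log2 fold change of -3.04 ± 0.92 (SE, n = 4 and 4; adjusted p = 0.0516, edgeR). Replicate 3 held 77.4% of the group's summed level. Without that library the value was -4.77 and 6 of the 9 genes were called, Nlrp3, Il1b and Il1rn among them and Casp1 not, beside 10.4% of all genes. Nlrp3 passed in 8 of 23 alternative fits, DESeq2 and the fit of all 24 libraries among them.

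The genes led by 1 library did not pass in this comparison. Il1b had 0.186, 0.366, 24.5 and 1.16 CPM in active pain and Il1rn had 0, 1.13, 46.6 and 0.856 CPM. Il1r2 had 0.885, 0.293, 8.16 and 0.336 CPM. In each, replicate 3 stood far above the other 3. Log2 fold changes against sedentary pain were -2.04 ± 1.23 for Il1b (adjusted p = 0.26), -0.91 ± 1.33 for Il1rn (0.644) and -1.45 ± 1.20 for Il1r2 (0.409), all from edgeR. Il1r1 was between 3.40 and 5.75 CPM in active pain, with -0.21 ± 0.22 (adjusted p = 0.506). Il1a had 0, 0, 10 and 2 counts. Without active pain replicate 3 the log2 fold change was -5.55 for Il1b, -5.12 for Il1rn and -3.79 for Il1r2. Without sedentary pain replicate 2 it was -1.37, 0.36 and 0.78 in the same order.

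The 4 calls between active and sedentary females rested on few libraries. None of the 9 genes was called in 5 of the 12 fits that left out 1 library: those without active pain replicate 1, 2 or 4 and those without sedentary pain replicate 3 or 4. Of all genes at most 0.0204% were called in those 5 fits. Casp1 lost its call in 9 of the 12, also without active pain replicate 3 or control replicate 2, 3 or 4. Over the 12 fits the log2 fold change ranged from -3.16 to -1.93 for Pycard, -3.34 to -2.33 for Casp1, -3.13 to -2.05 for Gsdmd and -2.94 to -2.11 for Il18. Fitting only these 2 groups also gave 0 calls, for these genes and for all genes. Macrophage and monocyte markers moved with them, 8 of 10 lower in active pain (202 to 434 CPM, none at 0), as did both T and NK cell markers tested (0.839 to 1.5 CPM, below all sedentary pain libraries). Mitochondrial genes held 8.77% ± 2.38 of counts in active pain (SD, n = 4). The part of these in the result was not tested.

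Against control, no gene was called in active females (0 of 9 by edgeR's quasi-likelihood test; 0% of all genes were called; 4 of the 9 had an unadjusted p under 0.05, as had 7.03% of all genes; DESeq2 called 2, Il1b and Il1rn, and 0.908% of all genes). Pycard and Gsdmd were nonetheless above every control in all 4 active pain libraries, as were 3.92% of all genes. Their log2 fold changes were 1.62 ± 0.67 (adjusted p = 0.658) and 0.93 ± 0.60 (0.837). Il1b and Il1rn had 5.72 ± 1.71 and 6.95 ± 2.00 (adjusted p = 0.565 for both), and without replicate 3 these were 2.24 and 2.77. Since both pain groups share these controls, the values against control are given side by side and not compared as lists.

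In males none of the genes was called. By edgeR's quasi-likelihood test 0 of the 8 genes tested were called in sedentary pain against control, in active pain against control or between the pain groups, and in each of these 0% of all 14404 genes were called. At an unadjusted p under 0.05 the counts were 6, 5 and 0 genes, beside 8.84%, 7.25% and 0.84% of all genes. DESeq2 called 2, 1 and 0 of the 8 genes and 1.9%, 0.892% and 0% of all genes. The smallest adjusted p was 0.296, 0.465 and 1 (edgeR). Log2 fold changes were above 0 for all 8 genes in both comparisons with control.

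Casp1, the protease gene, was low in male control muscle. Male controls had 0.35, 0.672, 0.604 and 0.387 CPM, sedentary pain 2.60, 0.82, 1.22 and 2.16 CPM and active pain 1.09, 2.95, 0.931 and 1.86 CPM. Every pain library was above every male control, in both pain groups. The log2 fold change was 1.77 ± 0.47 in sedentary pain (SE, n = 4 and 4; adjusted p = 0.296, edgeR) and 1.75 ± 0.47 in active pain (adjusted p = 0.465, edgeR).

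Pycard was likewise above every male control in all 8 male pain libraries. Controls had 0.35, 0.566, 0.939 and 0.645 CPM, sedentary pain 10.3, 1.23, 1.57 and 2.64 CPM and active pain 3.26, 5.90, 1.83 and 1.69 CPM. The log2 fold change was 2.68 ± 0.73 in sedentary pain and 2.33 ± 0.72 in active pain (adjusted p = 0.296 and 0.478, edgeR). Without sedentary pain replicate 1 the first was 1.52. Male sedentary pain had 4 genes above all controls (Nlrp3, Pycard, Casp1, Il1b), as did 4.48% of all genes tested. Nlrp3 was not itself among the genes tested in males. Active pain had 5 (Pycard, Casp1, Il1b, Il1rn, Il1r2), as did 7.31% of all genes tested.

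Il1b showed how far 1 library carried a male group. It had 0.035, 0.0354, 0.0671 and 0 CPM in male controls (0 to 2 counts). Sedentary pain had 51.6, 0.205, 0.175 and 0.52 CPM, and active pain 0.652, 19.8, 0.138 and 0.413 CPM. Replicate 1 held 98.3% of the summed level in sedentary pain and replicate 2 held 94.3% in active pain, while the other 6 libraries were still above all 4 controls, at 0.138 to 0.652 CPM. In counts these 6 held 4 to 15 reads each.

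Il1rn behaved alike, with 59.4, 0.0683, 0.393 and 0.409 CPM in male sedentary pain and 0.608, 21.0, 0.172 and 0.372 CPM in active pain, against 0 to 0.0708 CPM in controls. Il1r2 had 23.3, 0.342, 0.654 and 0.744 CPM in sedentary pain and 0.869, 6.89, 0.965 and 0.703 CPM in active pain, against 0.21 to 0.637 CPM. Nlrp3 reached 3.86 CPM in sedentary pain replicate 1 and 1.91 CPM in active pain replicate 2, and was between 0.124 and 0.335 CPM in the other 6, against 0.0354 to 0.168 CPM in controls. In sedentary males outside the single high library, Il1rn was within the controls in replicate 2 and above them in replicates 3 and 4 (9 and 11 counts), and without replicate 1 its log2 fold change was 2.61 in place of 8.39 (adjusted p = 1 and 0.357, edgeR). Il1r2 was within or just above the controls in the same 3 libraries.

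Gsdmd had 1.43 to 3.09 CPM in male controls, 2.44 to 14.9 CPM in sedentary pain and 2.62 to 11 CPM in active pain. Il18 was nearly level, at 0.355 to 0.778 CPM in controls, 0.376 to 1.46 CPM in sedentary pain and 0.62 to 1.63 CPM in active pain. Il1r1 spanned 7.81 to 15.7 CPM and 7.30 to 14.0 CPM in sedentary and active pain, around its controls. Il1a had 8 counts in sedentary pain replicate 1, 3 in active pain replicate 2 and 0 in every other male library.

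Whether the sexes differed was tested by the interaction of sex and condition over all 24 libraries. By edgeR's quasi-likelihood test 0 of 9 genes differed in the response to sedentary pain (smallest adjusted p = 0.432; 3 with an unadjusted p under 0.05), 0 in that to active pain (smallest adjusted p = 1; 0 genes) and 0 in active against sedentary pain (smallest adjusted p = 0.228; 4 genes). Unadjusted p-values under 0.05 were held by 9.57%, 2.03% and 14.7% of all genes. In each, edgeR called 0% of all 15103 genes. DESeq2 called 0 of the 9 genes in each, and its share over all genes is not given here.

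The gene nearest to a difference was Il18. Its female response to sedentary pain exceeded the male one by 2.40 ± 0.81 on the log2 scale (adjusted p = 0.432), and the difference in active against sedentary pain was -2.71 ± 0.80 (adjusted p = 0.228, edgeR). Pycard, Casp1 and Gsdmd had -2.33 ± 0.96, -2.94 ± 0.98 and -2.56 ± 0.92 in the latter (adjusted p = 0.291, 0.229 and 0.245). Without male sedentary pain replicate 1, 5 genes passed in this last comparison, beside 14.1% of all genes, and without female sedentary pain replicate 1, 3 did, beside 4.04%. A call in females and none in males therefore does not show that the sexes differ.

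A feature that the list did not fix was which library led each gene. Il1b, Il1rn and Il1r2 were highest in the same library of each group: female sedentary pain replicate 2, female active pain replicate 3, male sedentary pain replicate 1 and male active pain replicate 2. In the female sedentary pain group the machinery genes Nlrp3, Pycard, Casp1 and Gsdmd, together with Il18, were instead highest in replicate 4 and next highest in replicate 3. In the other 3 pain groups Nlrp3, Pycard, Gsdmd and Il18 peaked in the same library as Il1b, as did Casp1 in both male groups, while Casp1 in active females was highest in replicate 4.

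**Figure D3:**
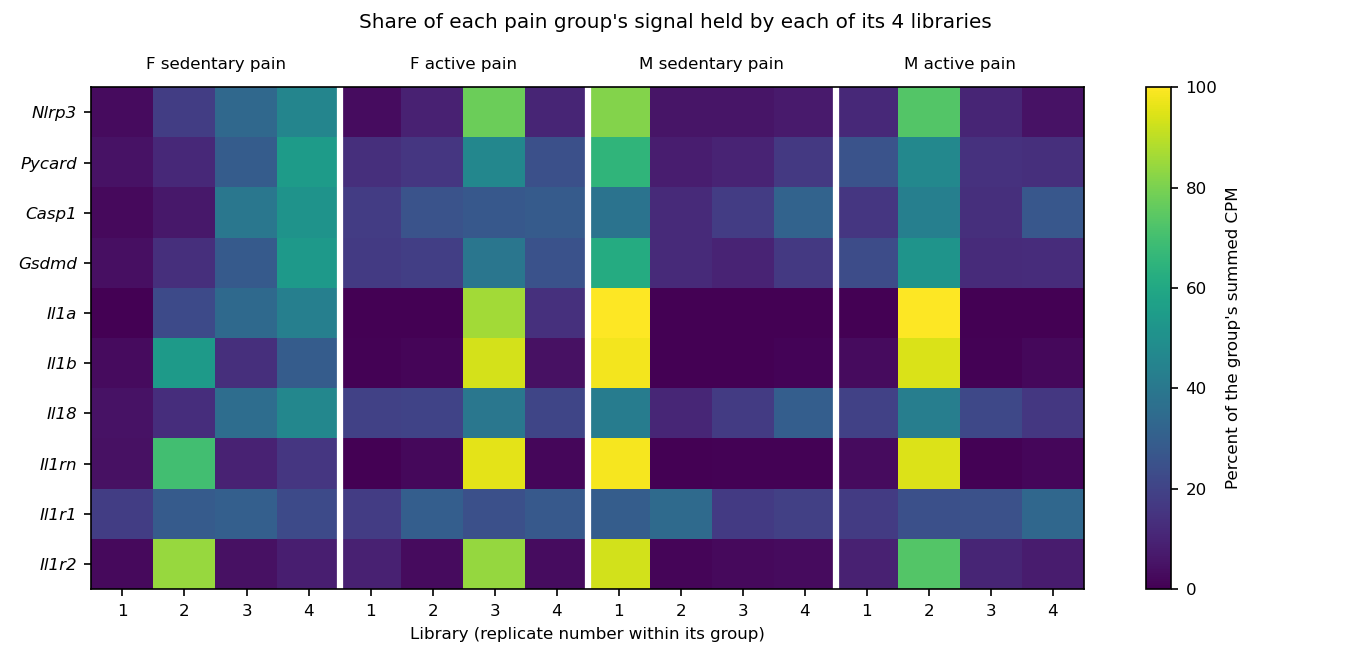
Percent of each pain group's summed CPM held by each of its 4 libraries, for the 10 genes; columns are replicates 1 to 4 of each group. Il1b, Il1rn and Il1r2 are concentrated in 1 library of each group (54.4% to 98.6%), and Il1r1 is spread over all 4; Il1a rests on at most 16 counts a library.

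Marker levels differed between these libraries. Neutrophil markers summed to 249 CPM in female sedentary pain replicate 2 and to 37.9 and 54.7 CPM in replicates 3 and 4. Of these sums Csf3r alone gave 33.6 CPM in replicate 2 and 26.9 and 36.9 CPM in replicates 3 and 4. Macrophage and monocyte markers summed to 702 CPM in replicate 2 and to 3405 and 4709 CPM in replicates 3 and 4. Within the other pain groups, neutrophil markers were highest in the same library as Il1b: 112 CPM in female active pain replicate 3, 293 CPM in male sedentary pain replicate 1 and 78.6 CPM in male active pain replicate 2. Macrophage and monocyte markers were highest in those 3 libraries too (434, 749 and 464 CPM). In controls the neutrophil markers summed to 0.708 to 7.31 CPM, with Ly6g at 0 in all male controls. Female active pain replicate 2 went another way, with 65.9 CPM of neutrophil markers and 0.366 CPM of Il1b.

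The plot of 4 genes beside marker levels shows the same libraries. Over the 24 libraries, which share the tissue and the groups, Spearman's rho with the macrophage and monocyte sum was 0.97 for Pycard, 0.95 for Casp1, 0.95 for Il1b, 0.75 for Il1r2 and 0.01 for Il1r1. With the neutrophil sum it was 0.87 for Nlrp3, 0.86 for Pycard, 0.84 for Gsdmd, 0.84 for Il1b and 0.84 for Il1rn. It was 0.74 for Casp1, 0.66 for Il1r2 and 0.02 for Il1r1. Apart from Il1r1, each gene had a higher rho with the macrophage and monocyte sum than with the neutrophil sum. Between pairs of the other 9 genes rho ranged from 0.59 to 0.95, and between Il1r1 and each of them from -0.18 to 0.08. These are descriptions of 24 libraries that differ by group. How much of each gene's change goes with the number of leukocytes was not tested.

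**Figure D4:**
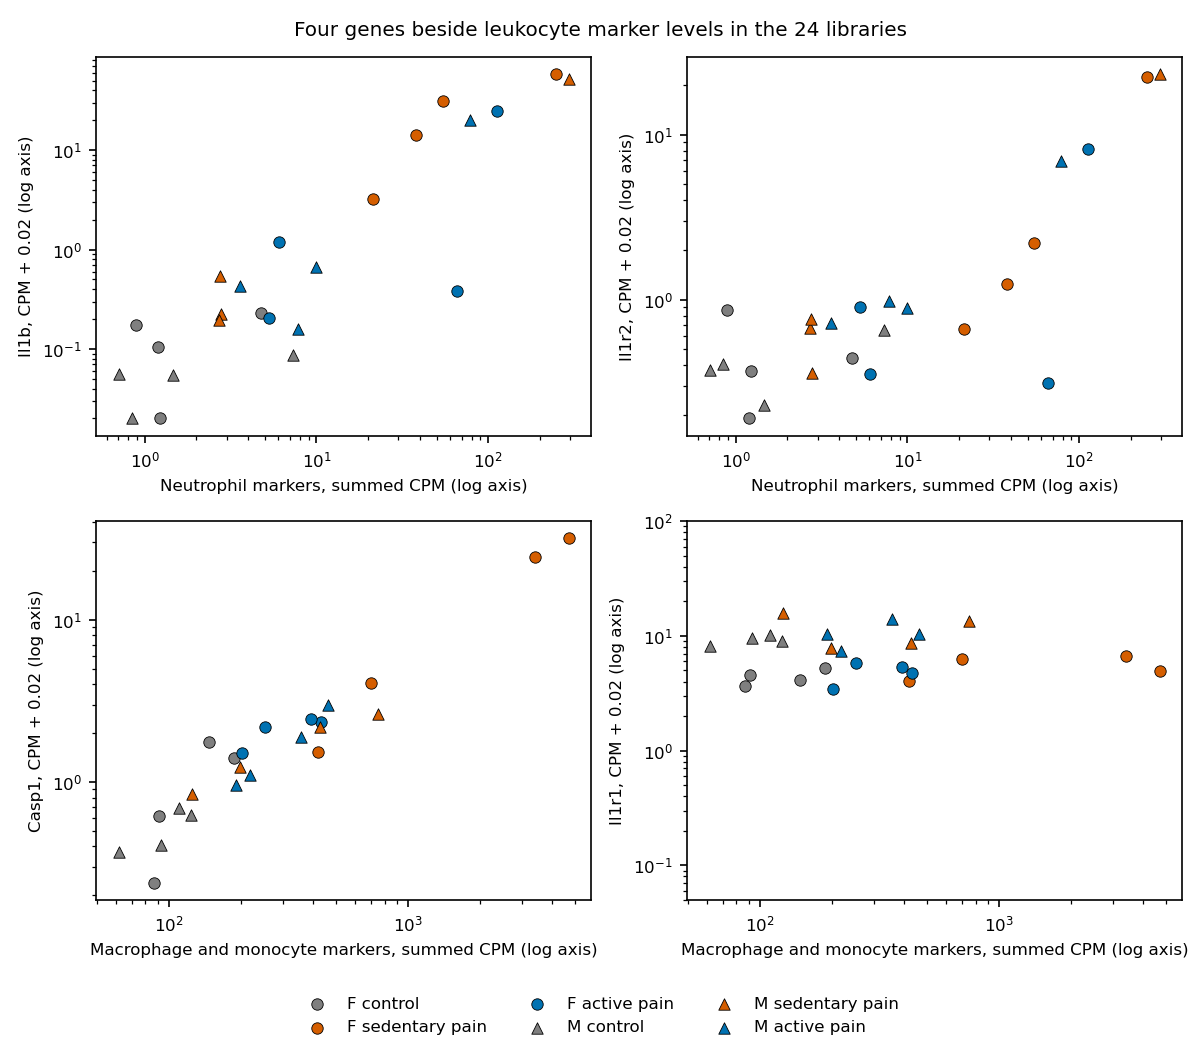
Il1b and Il1r2 against summed neutrophil markers, and Casp1 and Il1r1 against summed macrophage and monocyte markers, in the 24 libraries on log axes (CPM plus 0.02 on the vertical axis). Casp1 climbs from 0.219 to 31.8 CPM along the macrophage axis, whereas Il1r1 keeps to 3.40 to 15.7 CPM; female active pain replicate 2 is low in Il1b (0.366 CPM) and Il1r2 (0.293 CPM) for its neutrophil marker level of 65.9 CPM.

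The ratio of the ligand to its antagonist varied between libraries where both had many reads. Counts of Il1b divided by those of Il1rn, with exon length taken into account, gave 2.65 in female sedentary pain replicate 2, 1.53 in female active pain replicate 3, 2.52 in male sedentary pain replicate 1 and 2.75 in male active pain replicate 2. The ratio was 4.75 and 6.22 in female sedentary pain replicates 3 and 4, where Il1b was high and Il1rn less so. In controls both had at most 7 counts and the ratio carries no information.

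Compared per length, as transcripts per 1000000 (TPM, from merged exon lengths), Il1b and Il1r1 changed places in the order of the genes. In female controls Gsdmd (2.87 ± 0.72 TPM, SD, n = 4), Il1r1 (1.68 ± 0.34), Il18 (1.67 ± 0.90) and Casp1 (1.66 ± 1.2) led, the last 3 within their spread of each other, and Il1b (0.15 ± 0.12), Nlrp3 (0.07 ± 0.05) and Il1rn (0.04 ± 0.03) were last of those detected. In female sedentary pain Gsdmd (42.9 ± 39.4 TPM), Il1b (36.6 ± 28.3) and Casp1 (31.4 ± 31.5) led, again within their spread, and Il1r1 had 2.39 ± 0.75. By library Il1r1 was still above Il1r2 in replicates 1 (1.61 against 0.862 TPM) and 3 (3.41 against 2.11 TPM) and above Nlrp3 in replicate 1 (0.644 TPM). Gsdmd had the highest mean in both groups and Il1a the lowest.

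Ordered by group mean, Il1b stood at 26.6 ± 23.8 CPM (SD, n = 4) in sedentary females with pain and at 13.1 ± 25.6 CPM in the matching males. Active animals followed with 6.57 ± 12 CPM in females and 5.26 ± 9.72 CPM in males, and controls came last with 0.113 ± 0.091 and 0.034 ± 0.027 CPM. Each neighbouring pair in this order overlapped. Casp1 ran from 15.5 ± 15.0 CPM in female sedentary pain through 2.1 ± 0.42 in female active pain, 1.71 ± 0.92 and 1.70 ± 0.82 in male active and sedentary pain and 0.985 ± 0.698 in female controls to 0.503 ± 0.159 CPM in male controls, and neighbours overlapped here too.

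Il1r1 had a pattern of its own, by sex. It had 8.22, 10.1, 8.92 and 9.48 CPM in male controls, each above all female controls (3.63 to 5.27 CPM). Their mean was 9.19 ± 0.81 CPM against 4.37 ± 0.70 (SD, n = 4), and the log2 fold change of male against female controls was 1.05 ± 0.23 (SE, n = 4 and 4; adjusted p = 0.0147, edgeR). It was the 1 of 9 genes called in this comparison, where 2.83% of all genes were called, and the comparison was added after the values had been seen. The call was lost without female control replicate 3 or without male control replicate 2. In pain the female libraries (3.40 to 6.62 CPM) also stayed below all male ones (7.30 to 15.7 CPM).

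The other genes of the pathway gave a wider view of the same muscle. Of 45 further genes (sensors, caspases, ligands, receptors and signalling proteins), 33 were tested in females. They were chosen with earlier results of these data known, so their counts are a description and not independent support. In sedentary pain against control 18 were higher and 2 lower (edgeR, adjusted p under 0.05), beside 19.6% and 13.9% of all genes, with a median log2 fold change of 1.26. The count of lower genes was 0 in each fit without sedentary pain replicate 2 or 4 or without control replicate 1, 2 or 4. It was 4 without sedentary pain replicate 1. Over all fits that left out 1 library, 2486 to 6674 of all genes were called in either direction. Among 11 sensors and regulators tested 7 were higher, and the smallest adjusted p-values were those of the pyrin gene Mefv (6.54 ± 1.17, adjusted p = 0.00363), Naip5, a sensor of bacterial flagellin (3.67 ± 0.66, 0.00367), and the channel gene Panx1, whose fold was small (1.39 ± 0.27, 0.00459). Nek7, a kinase that binds NLRP3, was lower (-0.71 ± 0.21, adjusted p = 0.0245).

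Caspase and pore genes of that list were higher in 3 of 4: the noncanonical inflammasome caspase Casp4 (3.52 ± 0.68, adjusted p = 0.00473), Ninj1, which ruptures the dying cell's membrane (2.16 ± 0.42, 0.00497), and Casp8 (1.72 ± 0.38, 0.00803). Il33, an interleukin-1 family alarmin, was the 1 ligand tested of 6 and was higher (1.26 ± 0.26, 0.006). Of 7 receptors and inhibitors tested 3 were higher, all of the interleukin-18 axis: Il18rap (5.01 ± 0.88, 0.00338) and Il18r1 (3.93 ± 0.98, 0.0132), which encode its receptor chains, and Il18bp (4.41 ± 0.80, 0.00381), which encodes the protein that neutralises it. The receptor, its ligand and its inhibitor thus were called in the same direction.

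Among 10 signalling genes 4 were higher and 1 lower, with a median log2 fold change of -0.01. The adaptor Myd88 (2.53 ± 0.42, adjusted p = 0.00303) and the kinases Irak4 (2.27 ± 0.43, 0.00416) and Irak3, a brake on the pathway (2.62 ± 0.64, 0.0126), were higher. Tab2, which couples the receptor complex to TAK1, was lower (-0.56 ± 0.18, 0.0318).

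In active against sedentary females 16 of the 33 were lower and 0 higher (edgeR), beside 9.41% of all genes lower. The 16 included Nlrc4 (-3.19 ± 0.71, adjusted p = 0.0328, edgeR) and the DNA sensor gene Aim2 (-2.92 ± 0.70, 0.0328). The interleukin-18 axis was again among them, with Il18r1 (-4.36 ± 1.02, 0.0328), Il18bp (-3.29 ± 0.76, 0.0328) and Il18rap (-2.69 ± 0.75, 0.0405). The count of 16 fell to 0 in the same 5 fits without 1 library as that of the 4 genes above. In active females against control 0 of the 33 were called, and in males 0 of 29 in each comparison.

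Genes whose levels ran most like those of 4 of the set over the 24 libraries were found by Spearman's rho. For Nlrp3 they were Milr1, Ms4a6d, Emb and Cd300lb (rho 0.96, 0.96, 0.95 and 0.95), and those given for Il1b are Fgr and Cd300c2 (0.98 and 0.96). Vsir, Plpp2, Faim and Tes were nearest to Il18 (0.93, 0.92, 0.92 and 0.92). Il1r1 had different neighbours: Tead4, Opn1mw, Npc1 and Nek6 (0.88, 0.87, 0.87 and 0.86). The median rho over all genes was between -0.05 and 0.02 for these 4.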

How the data were processed

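Whole-muscle RNA was sequenced in 24 libraries, made per the labels' protocols with a stranded TruSeq kit from 0.5 µg of RNA. The deposited files hold raw read counts per gene, with no normalisation, for 54532 Ensembl genes. The submitters' processing notes name HISAT2 2.1.0, Salmon 0.9.1, featureCounts, DESeq2 1.24.0 and the builds mm10 and GRCm38.p6; which tool made the counts, its strand setting and its annotation are not given in the sources used here. Symbols, positions and exon lengths came from GENCODE M21.

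Each sex was fitted on its 12 libraries with edgeR 4.0.16 (TMM, filterByExpr with a minimum count of 10, robust quasi-likelihood test, two-sided), with Benjamini-Hochberg adjustment over all genes tested and a threshold of 0.05; sex differences used all 24. CPM used TMM factors over the 24 libraries. The fits were tested on simulated data. Alternatives were DESeq2 1.42.0, RLE scaling, no filter, other sample sets, a replicate block, library number, 1 surrogate variable (sva 3.50.0), mitochondrial genes left out and each library left out. No pair of libraries held identical counts, and the pairs within a group differed by more than sampling noise (chi-square per gene 8.00 to 369). The 10 genes, the 45 pathway genes and the markers were chosen with earlier results of these data known. Of the pathway genes, up to 3 called genes per role, direction and comparison with the smallest p are named, and for Nlrp3, Il1b, Il18 and Il1r1 the 4 genes with the highest Spearman's rho. Of those for Il1b, 2 are not reported here. Protein sequences were not used here.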

Additional observations from a re-analysis of the deposited data

Results flagged for a closer look

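In 20 of the 60 sets of 4 libraries (10 genes in 6 groups) the highest library stood apart from the other 3, with a gap to its neighbour that exceeded Dixon's 95% critical value; chance gives about 1 in 20 for independent, normally distributed sets, and these genes vary together. For Il1a in both male pain groups the other 3 libraries were at 0, so the gap is the whole range by construction, and in both control groups Il1a was at 0 throughout, so those 2 sets have no range to judge. In male sedentary pain replicate 1 these were Nlrp3 (3.86 CPM), Pycard (10.3 CPM), Gsdmd (14.9 CPM), Il1a (0.316 CPM, 8 counts), Il1b (51.6 CPM), Il1rn (59.4 CPM) and Il1r2 (23.3 CPM). In female active pain replicate 3 they were Nlrp3 (3.43 CPM), Il1a (0.381 CPM, 10 counts), Il1b (24.5 CPM), Il18 (1.45 CPM), Il1rn (46.6 CPM) and Il1r2 (8.16 CPM). In male active pain replicate 2 they were Nlrp3 (1.91 CPM), Il1a (0.12 CPM, 3 counts), Il1b (19.8 CPM), Il1rn (21.0 CPM) and Il1r2 (6.89 CPM). The last 2 were Il1r2 in female sedentary pain replicate 2 (22.5 CPM) and Gsdmd in male control replicate 3 (3.09 CPM). Neither Casp1 nor Il1r1 stood apart in this way in any group.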

How the results depend on the processing

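In sedentary females against control 7 or 8 genes were called in all 12 fits that left out 1 library (16.9% to 44.9% of all genes) and 7 with the replicate block (25.8%), where Il1r2 lost its call, but 0 in the libraries numbered 20 or lower and 0 with 1 surrogate variable. The cause was not tested. In active against sedentary females the number was 4. It was 0 with no filter on low counts, with only these 2 groups, in libraries numbered 20 or lower and with 1 surrogate variable. With 1 library left out it ranged from 0 to 6, while 0 to 4316 of all genes were called. With the replicate block it was 4, where Casp1 had an adjusted p of 0.0508 (edgeR) and Nlrp3 passed. DESeq2 gave 2 genes in active females against control, 2 in sedentary and 1 in active males. For the sex difference in sedentary pain 4 genes passed in the libraries numbered 25 or higher (8.51% of all genes) and 1 without both male libraries that stand apart (3.85%; chosen after seeing the data). For that in active against sedentary pain 4 passed in the libraries numbered 25 or higher (7.71%). With 1 library left out 0 to 5 passed, while 0 to 2174 of all genes were called. Between the sexes' controls the number was 0 in the libraries numbered 20 or lower (0.08% of all genes), 2 in those numbered 25 or higher (5.59%), and 0 to 1 with 1 library left out (1.29% to 4.05%).

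Directions turned in these cases. With 1 surrogate variable the log2 fold change was -0.093 for Il18 and -0.079 for Il1r2 in sedentary males against control, and -0.076 for Il1r2 in active males. In active against sedentary females it was then 0.23 for Casp1, 0.17 for Il1b, 0.72 for Il1rn and 0.13 for Il1r2. In the libraries numbered 25 or higher it was 0.98 for Il1rn and 1.25 for Il1r2 in that comparison and -0.18 for Il1r1 in sedentary males. In those numbered 20 or lower it was -0.045 for Il1r1 in active males and -0.19 for Gsdmd in the sex difference of sedentary pain. With 1 library left out, Il1rn in active against sedentary females ranged from -5.12 to 0.36 and Il1r2 from -3.79 to 0.78.

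The labels do not say whether the replicate numbers pair libraries. The residual correlation of same-numbered libraries exceeded 0.1 in 6 of 12 pairs in females and 4 of 12 in males. Differently numbered libraries were not compared, so these values cannot decide whether there is pairing. Pathway genes higher in sedentary females numbered 18, 4 in the libraries numbered 20 or lower and 0 with 1 surrogate variable. Those lower there numbered 2, 4 with DESeq2, and 0 in either set of libraries by number and with 1 surrogate variable. With 1 library left out they numbered 0 to 4, while 2486 to 6674 of all genes were called in either direction. Those lower in active against sedentary females numbered 16, and 2 with no filter on low counts. They numbered 0 with only the 2 groups compared, in the libraries numbered 20 or lower and with 1 surrogate variable. With 1 library left out they numbered 0 to 20, while 0 to 4316 of all genes were called in either direction. Depth limits Il1a in all groups and Nlrp3, Il1b and Il1rn in controls, where a library held at most 7 counts.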

Other observations

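Of the 8 neutrophil markers in female active pain replicate 2, 2 lay outside the range of the 6 libraries with more than 10 CPM of Il1b. Ngp, a granule gene of immature neutrophils, stood at 15.2 CPM there and at 0.0337 to 3.60 CPM in those 6. Csf3r, a receptor gene, was at 2.67 CPM there and at 13.6 to 41.8 CPM in those 6. The other 6 markers (Cxcr2, Mmp8, Ly6g, Retnlg, S100a8 and S100a9) lay within their range. This library was singled out after its values were seen, and no test was made.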
